A study of Caenorhabditis elegans with 6 samples.

Results

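F-box genes of the fbxa, fbxb and fbxc classes were measured in the first larval stage (L1) of Caenorhabditis elegans, a nematode. The members were all genes with an fbxa, fbxb or fbxc name and at least 60 raw counts summed over the 6 libraries. This gave 166 members of 322 such genes in a table of 20190 genes: 112 of 170 fbxa genes, 30 of 104 fbxb genes and 24 of 48 fbxc genes. The members were thus chosen by their summed counts, so their abundance is given below as a description, with no test.

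F-box proteins are the substrate-recognition parts of SCF ubiquitin ligases, in which a cullin scaffold carries a RING subunit and a Skp1-type adaptor binds the F-box. The bound substrate is ubiquitinated and usually degraded by the proteasome. In C. elegans this family is very large and many of its genes lie in tandem arrays, and most members have no assigned substrate. Some belong to the intracellular pathogen response, in which the cullin CUL-6 acts with the adaptors SKR-3, SKR-4 and SKR-5 and the F-box proteins FBXA-75 and FBXA-158.

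Polyadenylated RNA was sequenced from 3 strains with 2 libraries each. N2 is the wild-type laboratory strain. HW3826 is taken as the strain with maIs105, a transgene in which col-19 drives GFP: the design text gives VT1367 and HW3826 as names of 1 strain, and the growth protocol lists maIs105 under VT1367. GR1395 carries mgIs49, with the mlt-10 promoter driving GFP with a PEST destabilising sequence and a ttx-3 GFP reporter, and the growth text spells it GR1935. All larvae were starved and synchronised in M9 buffer overnight and then kept at 25 °C for 4 hours. Each array is represented by 1 strain, so an effect of the array and one of its insertion site or strain background cannot be told apart. The labels do not say that libraries of a strain came from separate cultures, so p-values measure only the spread between these libraries.

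The libraries held between 42593688 and 54957641 counts. Genes that mark body wall muscle, pharynx, intestine, hypodermis and neurons were all detected. Of the sperm genes, msp-3 was at 0 in every library and msp-31 had between 4 and 15 counts. Of the yolk genes, vit-2 had between 2 and 15 counts and vit-6 between 9 and 29. Summed over a list of 22 maternal and early embryonic genes, the level was 214 and 260 CPM (counts scaled to 1000000 per library) in N2 and 250 and 192 in HW3826, against 79.0 and 99.2 in GR1395. Of these 22 genes, 21 were tested and 15 were lower in GR1395 than in N2, where 8.15% of all genes tested were lower. The calls of oma-1, oma-2, meg-2 and pie-1 held in every leave-out, and each other call of this list ended in at least 1. Of 13 tissue markers tested, 4 rose in GR1395 (unc-54, myo-3 and myo-2 of muscle and elt-2 of intestine) and 1, elt-2, in HW3826, where 7.93% and 3.54% of all genes tested were higher. The other intestine markers, ges-1 and vha-6, did not pass. Their log2 values were -0.06 and -0.16 in GR1395 and 0.01 and 0.04 in HW3826. In GR1395 the calls of unc-54, myo-2 and elt-2 ended in at least 1 leave-out (adjusted p up to 0.175). In whole larvae, fewer cells of a type and less RNA per cell cannot be told apart.

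F-box members were rare transcripts with a few exceptions. Together they took 0.0502% and 0.0470% of the counts in N2, 0.0424% and 0.0445% of those in HW3826 and 0.0663% and 0.0568% in GR1395. Both GR1395 libraries lay above the other 4 and both HW3826 libraries lay lowest. Corrected for gene length and scaled to a library sum of 1000000 (TPM, averaged over the 6 libraries), the median member was at 1.45, from 0.197 to 54.3, and 10 members reached 10 TPM. All genes with at least 60 counts had a median of 12.3 TPM, and 6 members lay above it. The class medians were 2.13 TPM for fbxa, 0.469 for fbxb and 1.55 for fbxc.

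fbxa-24 (WBGene00018803, II 3816526 to 3818238 on the plus strand, build WBcel235) was the most abundant member. Its length-corrected level stood at 44.8 and 36.4 TPM in N2, at 37.4 and 32.0 in HW3826 and at 106 and 69.0 in GR1395. The next 4 were fbxc-52 at 17.4 TPM, fbxa-64 at 14.3, fbxa-67 at 13 and fbxa-65 at 12.7, as means of the 6 libraries. None of these 4 passed in any comparison of strains: their log2 fold changes lay between -0.26 and 0.23. At the other edge, fbxb-63 and fbxa-42 entered the set with 60 summed counts and fbxa-96 with 61, while fbxb-61 (57), fbxa-179 (56) and fbxb-93 (55) stayed outside.

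The members were unevenly placed on the chromosomes. V held 51 of them, III 44, II 43, X 10, and I and IV 9 each. III carried 26.5% of the members against 15.3% of all genes with at least 60 counts, and II 25.9% against 17%. Neighbours with at most 20 kb between them formed 27 runs that held 96 members, and the other 70 stood alone. The longest run had 16 fbxa members on III (1239048 to 1340340), followed by 10 fbxc members on II (907448 to 991146), 8 fbxa members on III (933422 to 963833) and 7 fbxa members on III (2259906 to 2314035). Such arrays hold related copies, and how the authors' counting divided reads among similar copies is not given in the sources used here, so the split within an array is uncertain. Exons of 13 members overlap a gene on the opposite strand and those of 8 overlap a gene on the same strand, which leaves their reads uncertain too.

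All 166 members passed the expression filter and entered the test, and 136 of them exceeded its minimum of 0.21 CPM in every library. No member exceeded that minimum in both libraries of just 1 strain and nowhere else. The members varied more between libraries of a strain than most genes: the median biological coefficient of variation was 15.1% for members and 8.32% for all 15024 genes tested. The test was the edgeR quasi-likelihood test with Benjamini-Hochberg adjustment over all 15024 genes at a threshold of 0.05, in 1 fit of the 6 libraries. In all, 55 members passed in at least 1 of 3 comparisons.

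GR1395 against N2 asks what differs in larvae with mgIs49. Most F-box members did not pass in this comparison. Of 112 fbxa members, 15 rose, 6 fell and 91 did not pass. Of 30 fbxb members, 0 rose, 7 fell and 23 did not pass. Of 24 fbxc members, 2 rose and 2 fell. Among all genes tested, 7.93% were higher and 8.15% lower in GR1395, so the counts for the whole set, 17 higher (10.2%) and 15 lower (9.04%), lie near the background. By class, 13.4% of fbxa members were higher and 5.36% lower, and 23.3% of fbxb members were lower. The difference between the classes was not tested. The count minimum sums all 6 libraries, so a rare gene low in GR1395 could become a member through its N2 and HW3826 counts. Likewise, a rare gene high in GR1395 could enter through its GR1395 counts. The shares of rare members called can depend on this selection, and how far they do was not tested.

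The median log2 fold change in GR1395 was 0.28 for fbxa, -0.19 for fbxb and 0.00 for fbxc, against 0.01 for all genes tested. Both GR1395 libraries lay above both N2 libraries for 52.7% of fbxa members, where 36.0% of all genes tested did so. For fbxb members both GR1395 libraries lay below both N2 libraries in 40.0%, against 23.6% of all genes tested. Without adjustment at 0.05, 0 fbxb members were higher and 11 lower, and the share of all genes tested at that level was not counted. DESeq2, and limma run on the deposited log2 values, each called 0 fbxb members higher and 4 lower. Of all genes, DESeq2 called 995 higher and 1202 lower, and limma 1446 higher and 927 lower.

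**Figure D1:**
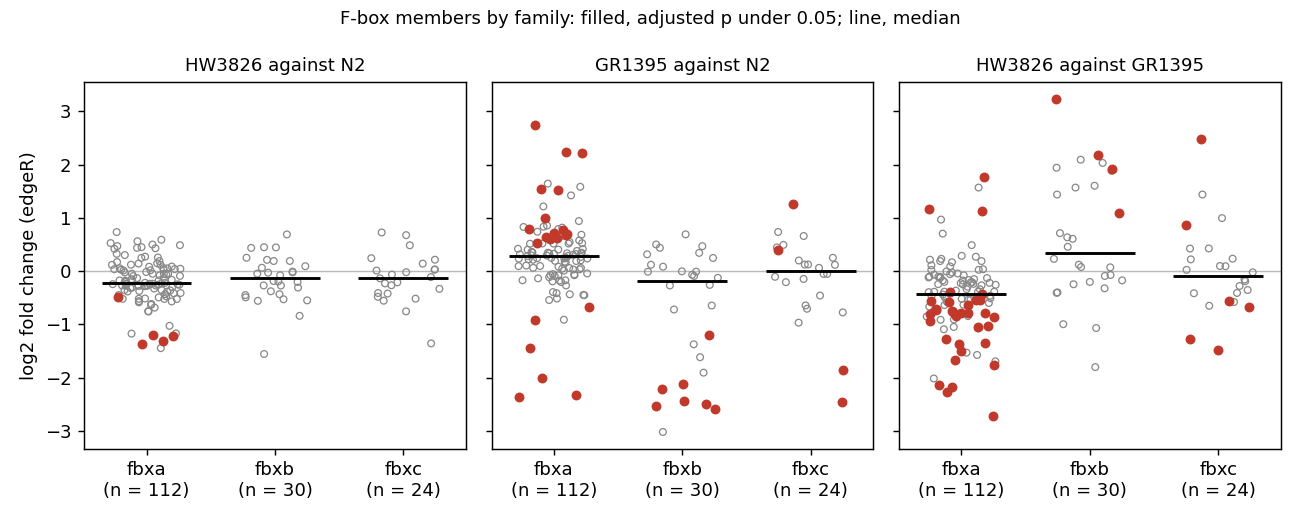
Log2 fold change from edgeR (vertical axis) of each F-box member, by class, in the 3 comparisons; filled points passed an adjusted p under 0.05 and horizontal lines are class medians. In GR1395 against N2 the fbxa median is 0.28 and the fbxb median -0.19, with 7 of 30 fbxb members called lower.

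The largest rises were of rare fbxa transcripts. fbxa-163 (WBGene00015598, II 1609252 to 1610730) was at 0.657 and 0.567 CPM in N2, at 0.975 and 0.712 in HW3826 and at 6.04 and 2.39 in GR1395. Each GR1395 library exceeded the other 4, and the GR1395 pair differed widely. The fold change was 6.67 (log2 2.74, SE 0.44, adjusted p = 0.00494), and without either N2 library the call ended (adjusted p up to 0.149). fbxa-155 (WBGene00007323, III 10007966 to 10010217) had 0.329 and 0.436 CPM in N2, with 0.187 and 0.356 in HW3826 and with 2.4 and 1.27 in GR1395. It rose 4.62-fold (log2 2.21, SE 0.40, adjusted p = 0.00354), a call that ended without GR1395 replicate 1 (adjusted p = 0.0708). fbxa-163 lies in a run of 3 with fbxa-166 and fbxa-158, which had log2 values of -0.27 and 0.85 in GR1395 and did not pass.

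Among the more abundant members, fbxc-58 and fbxa-59 gave the steadiest rises. fbxc-58 (WBGene00007506, IV 9371508 to 9373206) was at 4.11 and 3.66 CPM in N2, at 4.08 and 3.56 in HW3826 and at 11.6 and 7.55 in GR1395, a 2.39-fold rise (log2 1.25, SE 0.19, adjusted p = 0.00135). fbxa-59 (WBGene00020455, III 939941 to 943476) was at 4.98 and 4.29 CPM in N2, at 3.54 and 4.23 in HW3826 and at 8.64 and 7.83 in GR1395, a 1.72-fold rise (log2 0.78, SE 0.15, adjusted p = 0.00397). For both genes the GR1395 libraries stood clear of the other 4, and these 2 of the 17 risers kept their call whichever library was left out. fbxa-24, the most abundant member, had 54.8 and 46.9 CPM in N2, with 45.5 and 38.3 in HW3826 and with 128 and 81.8 in GR1395. The log2 fold change of this gene was 0.996 (SE 0.22, adjusted p = 0.0383), and the call ended without any 1 of the N2 or HW3826 libraries (adjusted p up to 0.35).

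The largest run, on III, held 5 of the risers. fbxa-36 (WBGene00022479, III 1291970 to 1293235) was at 0.352 and 0.262 CPM in N2, at 0.562 and 0.335 in HW3826 and at 1.84 and 1.14 in GR1395, a log2 fold change of 2.23 (SE 0.40, adjusted p = 0.00314). The members next to it in the run, fbxa-50 and fbxa-35, each rose by 1.53 on the log2 scale (adjusted p = 0.0211 and 0.0222). fbxa-37 rose by 0.61 and fbxa-63 by 0.70. In all, 13 of the 16 members of the run had a positive log2 fold change in GR1395, with a median of 0.29, from -0.41 for fbxa-5 to 2.23. Over all 112 fbxa members, 83 were positive and the median was 0.28, so the run lay near the level of its class. Of 14 other genes that lie within the run, 4 were tested and 0 passed, with a median of 0.59; with so few genes the run cannot be set apart from its surroundings. The 5 calls of the run ended without GR1395 replicate 1 (adjusted p of fbxa-36 then 0.0538), and those of fbxa-50, fbxa-37, fbxa-63 and fbxa-35 also without N2 replicate 2. That of fbxa-35 ended without N2 replicate 1 as well.

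**Figure D2:**
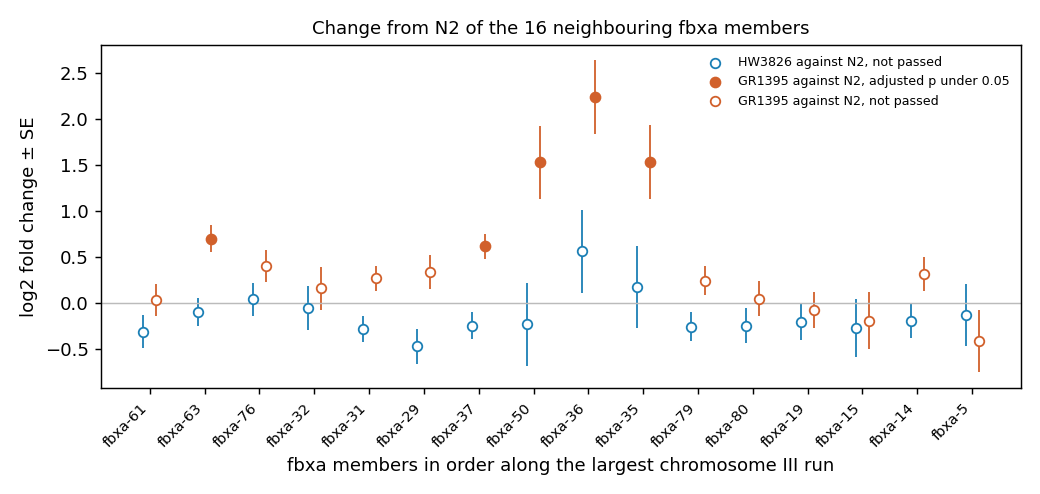
Log2 fold change with its SE, derived from the F statistic, for the 16 fbxa members of the longest run. Members are in their order along chromosome III, for HW3826 and GR1395 against the same N2 libraries. Filled points passed. In GR1395 the risers fbxa-50, fbxa-36 and fbxa-35 stand next to each other, and in HW3826 no member of the run passed.

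Of the other risers, fbxa-60, in the run of 8 on III with fbxa-59, rose by 0.61 on the log2 scale, fbxa-38 by 0.64, fbxa-53 by 0.72, fbxa-69 by 0.77, fbxa-2 by 0.68, fbxa-3 by 0.52 and fbxc-54 by 0.40. All 8 members of that run had positive values in GR1395, between 0.08 and 0.78, with 2 called, where 83 of all 112 fbxa members were positive. Exons of fbxa-3 overlap those of fbxc-19 on the opposite strand, so reads of the pair may be mixed. The calls of fbxc-54 and fbxa-2 ended without any of the 6 libraries, those of fbxa-60, fbxa-53, fbxa-69 and fbxa-3 without N2 replicate 2 or GR1395 replicate 1, and that of fbxa-38 without N2 replicate 2 or GR1395 replicate 2. Replicate 1 of GR1395 had the higher CPM for 16 of the 17 risers, and for 58.0% of all genes tested. Without it, 5 members were called higher, and without N2 replicate 2, 4 were. Over all genes tested the count of genes higher also dropped, from 1192 to 269 without GR1395 replicate 1 and to 399 without N2 replicate 2. With both left out, 4 were called, an alternative chosen after seeing the data.

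The fbxb fallers were near the lower limit of detection. fbxb-17 (II 1676388 to 1677439) gave 20 and 48 counts for N2, 44 and 19 for HW3826, and 3 and 11 for GR1395. fbxb-15 (II 1652455 to 1653497) gave 23 and 45 counts for N2, 31 and 36 for HW3826, and 4 and 14 for GR1395. fbxb-41 (II 1041318 to 1042327) had 12 and 38, then 22 and 20, then 3 and 7 counts in the same order. For these 3 genes both GR1395 libraries were below the other 4. fbxb-44, fbxb-54 and fbxb-91 were rarer still, and their GR1395 libraries held 7 and 1, 4 and 3, and 2 and 7 counts. Fitted log2 fold changes of these 6 genes lay between -2.58 and -2.13 (adjusted p from 0.022 to 0.0478), and their size is limited by the low GR1395 counts. fbxb-103 fell by 1.19 (adjusted p = 0.0436), and its exons overlap bcmo-2 on the opposite strand. All 7 are on II. The other fbxb members on II, fbxb-14, fbxb-20, fbxb-26, fbxb-43, fbxb-53 and fbxb-88, did not pass in GR1395 against N2. fbxb-43 gave 12 and 17 counts for N2 and 4 and 5 for GR1395. fbxb-26 gave 16 and 10 for N2 and 6 and 4 for GR1395. In both of these genes the GR1395 libraries lay below those of N2. In fbxb-14 they lay above, and in fbxb-20, fbxb-53 and fbxb-88 the libraries of the strains overlapped.

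The 7 fbxb fallers together stood at 2.94 and 5.95 CPM in N2, at 3.62 and 3.04 in HW3826 and at 0.964 and 1.40 in GR1395, while the other 23 fbxb members summed to 15.4 and 16.9, 15.1 and 16.1, and 17.1 and 15.2. The sum for the maternal and early embryonic list was also lowest in GR1395 and highest in N2 replicate 2, and its part in the fbxb result was not tested. The call of each of the 7 ended without N2 replicate 2 and without GR1395 replicate 1. Those of fbxb-44, fbxb-54 and fbxb-103 ended without GR1395 replicate 2 as well, and that of fbxb-91 without N2 replicate 1. With both N2 replicate 2 and GR1395 replicate 1 left out, 0 fbxb members were called.

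**Figure D3:**
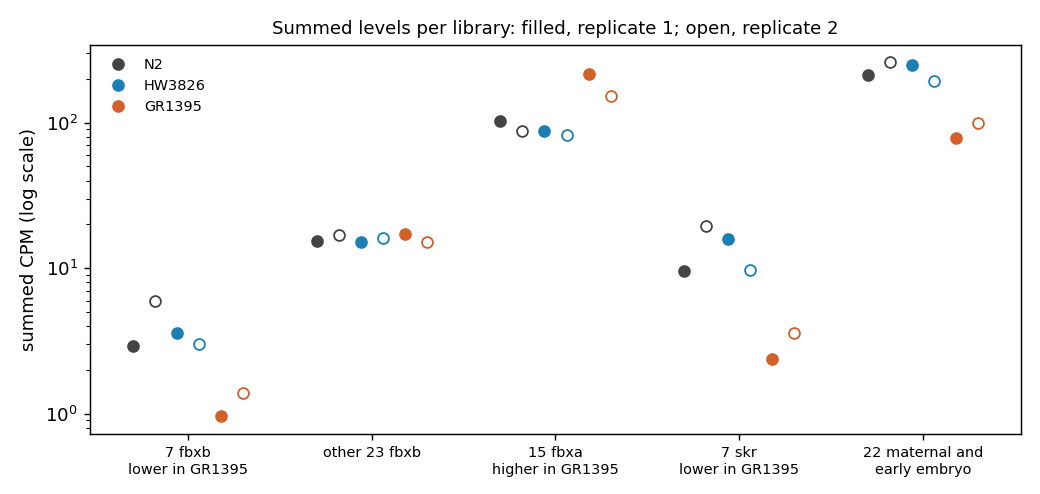
Summed CPM per library, on a log axis, for the 7 fbxb fallers, the other 23 fbxb members, the 15 fbxa risers, 7 Skp1-related (skr) genes and 22 maternal and early embryonic genes; colours are strains, filled points replicate 1 and open points replicate 2. The fbxb fallers, the skr genes and the maternal list were lowest in both GR1395 libraries, and N2 replicate 2 was highest for each.

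The other fallers were 6 fbxa and 2 fbxc members, and 3 of the fbxa genes kept their calls in every leave-out. fbxa-185 (WBGene00009836, V 17331640 to 17335556) was at 2.42 and 2.94 CPM in N2, at 2.36 and 2.20 in HW3826 and at 0.655 and 0.719 in GR1395. It fell 4.03-fold (log2 -2.01, SE 0.24, adjusted p = 0.00031). fbxa-215 (WBGene00012879, IV 13665364 to 13666909) was at 6.71 and 8.39 CPM in N2, at 6.67 and 5.49 in HW3826 and at 2.27 and 3.49 in GR1395 (log2 -1.44, SE 0.21, adjusted p = 0.00157). fbxa-172 (WBGene00008014, V 17559246 to 17561612) was at 2.02 and 1.81 CPM in N2, at 0.637 and 1.05 in HW3826 and at 0.364 and 0.402 in GR1395 (log2 -2.36, SE 0.33, adjusted p = 0.000767). In all 3 genes both GR1395 libraries lay below both N2 libraries.

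fbxa-170, on X, fell by 2.33 on the log2 scale, fbxc-28 by 1.86 and fbxc-18 by 2.45, and fbxa-156 and fbxa-157, a run of 2 on V, fell by 0.68 and 0.92. fbxc-18 gave 14 and 33 counts for N2, 35 and 20 for HW3826, and 5 and 5 for GR1395. Every one of these 5 calls ended without 1 or more libraries: N2 replicate 2 for all but fbxa-156, GR1395 replicate 1 for all but fbxa-170, GR1395 replicate 2 for fbxc-18 and fbxa-157, and N2 replicate 1 for fbxa-156. Without N2 replicate 2, and also without GR1395 replicate 1, 4 members were called lower in all. Over all genes the count lower went from 1224 to 529 and 387.

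**Figure D4:**
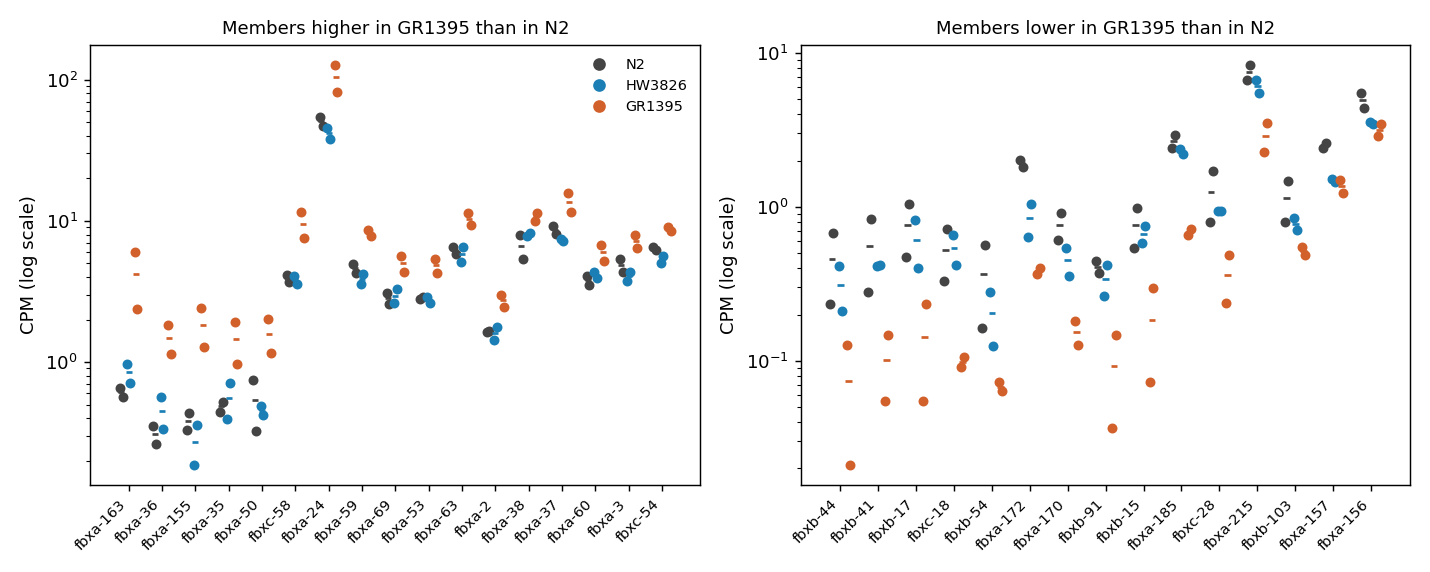
CPM on a log axis in each of the 6 libraries for the 17 members higher and the 15 lower in GR1395 than in N2, in order of fold change; points are libraries, short lines means of 2. In each gene shown the GR1395 libraries do not overlap those of N2, and the HW3826 libraries overlap those of N2 for most of them, with fbxa-172 among those where HW3826 lies below N2.

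HW3826 against N2 asks what differs in larvae with maIs105. In HW3826, 0 F-box members rose, 5 fell and 161 did not pass; all 5 are fbxa genes. Among all genes tested 3.54% were higher and 2.46% lower, and the 5 fallers are 3.01% of the members, near the background. Without adjustment, 3 members were higher and 20 lower at 0.05. The share of all genes tested at that level was not counted, so these 2 counts have no background beside them. DESeq2 and limma each called 0 members higher and 4 lower. Of all genes, DESeq2 called 582 higher and 389 lower, and limma 443 higher and 306 lower. The median log2 fold change was -0.20 over the members against -0.01 over all genes tested, and both HW3826 libraries lay below both N2 libraries for 33.1% of the members, where 24.3% of all genes tested did so.

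fbxa-138 (WBGene00022345, III 1382185 to 1384252) was at 3.19 and 3.12 CPM in N2, at 1.12 and 1.42 in HW3826 and at 3.18 and 3.49 in GR1395. It fell 2.48-fold in HW3826 (log2 -1.31, SE 0.21, adjusted p = 0.00215). fbxa-98 (WBGene00007453, IV 13633407 to 13635223) was at 3.15 and 2.42 CPM in N2, at 1.14 and 1.26 in HW3826 and at 3.0 and 2.07 in GR1395 (log2 -1.21, SE 0.24, adjusted p = 0.00966). In both genes the HW3826 libraries lay below the other 4 and the N2 and GR1395 libraries overlapped. These calls held whichever library was left out.

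The other 3 fallers depended on single libraries. fbxa-166 was at 2.09 and 1.24 CPM in N2 and 0.581 and 0.712 in HW3826 (log2 -1.36, adjusted p = 0.0366), and its call ended without N2 replicate 1 and without each of the HW3826 libraries. fbxa-172 fell by 1.19 (adjusted p = 0.0343), with no call without either N2 library or HW3826 replicate 1. fbxa-219 was at 9.46 and 8.63 CPM in N2 and 6.18 and 6.81 in HW3826 (log2 -0.48, adjusted p = 0.0373), and its call ended without any 1 of those 4 libraries. Members called lower numbered 2 without N2 replicate 1, 3 without N2 replicate 2 and 3 without HW3826 replicate 1, and leaving out the last ended 3 of the 5 calls. fbxa-172 was the only member called against N2 in both strains, at log2 -1.19 in HW3826 and -2.36 in GR1395, comparisons that share the N2 libraries.

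HW3826 against GR1395 sets the array strains side by side, without the N2 libraries in the contrast. Here 34 members were lower in HW3826 and 9 higher. Among all genes tested 7.17% were lower and 7.33% higher, so the 20.5% of members that were lower lie above the background share and the 5.42% that were higher lie below it. Of the fbxa members, 30 were lower in HW3826 and 3 higher. Of the fbxb members, 0 were lower and 4 higher, and of the fbxc members 4 were lower and 2 higher. Beside the 0 fbxb members lower there were 3 at 0.05 without adjustment, 0 by DESeq2 and 0 by limma. The fbxa median was -0.42 and the fbxb median 0.34, against -0.01 for all genes tested. Both HW3826 libraries lay below both GR1395 libraries for 66.1% of fbxa members and for 37.4% of all genes tested.

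Among the members lower in HW3826, fbxa-155 (log2 -2.72, SE 0.42, adjusted p = 0.000954), fbxa-163 (-2.27), fbxa-50 (-1.76), fbxa-36 (-1.67) and fbxa-35 (-1.36) had risen in GR1395 against N2. fbxa-89 was lower by a log2 value of -2.18, with 4 and 15 counts in HW3826 and 69 and 25 in GR1395, and fbxa-218 by -2.14, with 5 and 5 against 25 and 22. fbxc-58 was at -1.28, fbxa-24 at -1.27, fbxa-138 at -1.35, fbxa-59 at -1.04, fbxa-98 at -1.04 and fbxa-37 at -0.86. In each of these 13 genes the HW3826 and GR1395 libraries do not overlap.

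In all, 19 of the 43 members passed in this comparison and in neither of those against N2, with HW3826 lower than GR1395 in 16 of them. The others of these 16, beside fbxa-89 and fbxa-218, were fbxa-29 (-0.81), fbxa-153 (-0.79), fbxa-152 (-0.74), fbxa-51 (-0.93), fbxa-222 (-0.83), fbxa-90 (-0.64), fbxa-167 (-0.58), fbxa-105 (-0.56), fbxa-31 (-0.55), fbxa-4 (-0.55) and fbxa-150 (-0.40), together with fbxa-127 (-1.49), fbxc-7 (-1.49) and fbxc-36 (-0.56). fbxa-167 was at 9.32 and 8.96 CPM in N2, at 7.16 and 8.02 in HW3826 and at 11.8 and 11.6 in GR1395, so N2 lay between the array strains. fbxa-152 and fbxa-153, in a run of 3 on V, showed the same order in their means, while fbxa-154 between them, which did not pass, had N2 and HW3826 libraries that overlapped.

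The members higher in HW3826 were fbxa-185 (log2 1.78, SE 0.25, adjusted p = 0.000454), fbxa-215 (1.13), fbxa-172 (1.17), fbxc-51 (0.87), fbxb-101 (1.09), fbxb-15 (1.92), fbxb-17 (2.18), fbxc-18 (2.48) and fbxb-3 (3.23). fbxb-3 gave 3 and 26 counts for N2, 17 and 21 for HW3826, and 2 and 2 for GR1395, and those counts are too low for the fitted size to be read closely. Its N2 libraries differed widely, and in GR1395 against N2 it did not pass (adjusted p = 0.0532).

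Of the 43 calls, 8 held whichever library was left out: fbxa-155, fbxa-138, fbxc-58, fbxa-59, fbxa-37, fbxc-54, fbxa-215 and fbxa-185. Leaving out GR1395 replicate 1 ended 30 calls and leaving out GR1395 replicate 2 ended 12. HW3826 replicates 1 and 2 ended 23 and 19 calls. Either N2 library ended those of fbxa-163 and fbxa-24, as did either HW3826 library. fbxa-222, fbxa-63, fbxa-3 and fbxa-152 lost the call without GR1395 replicate 1 alone, fbxa-153 without GR1395 replicate 2 alone and fbxa-167 without HW3826 replicate 1 alone. Members lower in HW3826 numbered 12 without GR1395 replicate 1, and 17 and 21 when HW3826 replicates 1 and 2 were left out in turn. Over all genes the count lower went from 1077 to 312, 477 and 544 in the same order. Members higher numbered 2 without GR1395 replicate 1 and 4 without HW3826 replicate 1.

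The partners of F-box proteins in the SCF ligase were read from a list of 25 names, of which 23 genes were tested. In GR1395 against N2, 1 rose and 7 fell, where 7.93% of all genes tested were higher and 8.15% lower. The main scaffold cul-1 had log2 values of 0.00 in HW3826 and -0.05 in GR1395, and skr-1, the most abundant Skp1-type adaptor of the list, -0.09 and 0.04, and neither passed. cul-6, the cullin of the pathogen response, gave 221 and 267 counts for N2, 293 and 320 for HW3826, and 561 and 395 for GR1395, and it rose by 0.71 in GR1395 (adjusted p = 0.00741), and the call ended in at least 1 leave-out (adjusted p up to 0.0962).

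The 7 fallers were all Skp1-related adaptor genes: skr-8 (-2.39), skr-9 (-1.71), skr-10 (-2.36), skr-12 (-2.63), skr-13 (-2.54), skr-14 (-2.51) and skr-15 (-2.62), as log2 fold changes in GR1395. skr-12 gave 48 and 99 counts for N2, 99 and 50 for HW3826, and 17 and 11 for GR1395 (adjusted p = 0.00256). Together the 7 stood at 9.51 and 19.5 CPM in N2, at 15.97 and 9.72 in HW3826 and at 2.38 and 3.62 in GR1395. The sum for the maternal and early embryonic list was also lowest in both GR1395 libraries, and its part was not tested. The calls of skr-12, skr-13 and skr-14 held in every leave-out, with adjusted p up to 0.0443, while those of skr-8, skr-9, skr-10 and skr-15 did not, with adjusted p up to 0.226. In HW3826 against N2, 0 of the 23 genes passed with edgeR, DESeq2 or limma, and 2 were lower at 0.05 without adjustment.

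Of 9 F-box genes with other names, lin-23 rose by 0.34 and prom-1 fell by 0.84 in GR1395 (adjusted p = 0.0253 and 0.0204), and both calls ended in at least 1 leave-out (up to 0.164). lin-23 codes for an F-box protein that restrains cell division, and prom-1 for one that acts in meiosis. Of 12 genes for neddylation, which activates cullins, and for the COP9 signalosome, which reverses it, ned-8 fell by 0.26 in GR1395 (adjusted p = 0.0474 with edgeR), while DESeq2 and limma each called 0. Of 6 ubiquitin activation and conjugation genes, ubc-18 fell by 0.40 (adjusted p = 0.0172). Beside these 3 lists, 7.93% of all genes tested were higher in GR1395 and 8.15% lower. The calls of ned-8 and ubc-18 also ended in at least 1 leave-out (up to 0.206).

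Of 21 pathogen response genes tested, 2 rose and 0 fell in GR1395 and 0 passed in HW3826 with edgeR, DESeq2 or limma. With 7.93% of all genes tested higher in GR1395, the 2 risers lie near the background. At 0.05 without adjustment, 2 were lower in GR1395, and 2 were higher and 1 lower in HW3826. The risers were cul-6 and the RNA helicase gene drh-1 (log2 0.32, adjusted p = 0.032), whose call ended in at least 1 leave-out (adjusted p up to 0.156). Its F-box gene fbxa-158 (II 1619814 to 1621280) gave 17 and 26 counts for N2, 19 and 23 for HW3826, and 70 and 25 for GR1395 (adjusted p = 0.206 in GR1395). The high value was that of GR1395 replicate 1 only. fbxa-75 had between 1 and 5 counts per library and is not a member, and the reporter gene of the response, pals-5, had between 2 and 5.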

How the data were processed

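Per the labels' protocols, RNA was turned into libraries by Illumina Stranded mRNA Prep, with paired reads from a NovaSeq. The submitters' processing notes name the build ce11 and HISAT2 version 1.10.0; which tool counted the reads, with which annotation and strand setting, is not given in the sources used here. Deposited by the authors were raw counts of each gene, a length per gene in bases, and log2 values. The deposited log2 values equal log2 of the count, scaled to the mean library total, plus 8. Names and positions came from the Ensembl annotation of WBcel235, the assembly behind ce11, and 20105 of 20190 identifiers matched.

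Counts were tested with edgeR 4.0.16 (R 4.3.3, limma 3.58.1): TMM scaling (factors 0.977 to 1.034), the default expression filter, robust quasi-likelihood fit, 1 coefficient per strain, 6 libraries, 3 residual degrees of freedom. The script was tested on simulated data; where simulated spread varied between genes as here, false calls could exceed the nominal share. The edgeR test gives no standard error, so SE here is the absolute log2 fold change divided by the square root of the F statistic. CPM are counts scaled to 1000000 per library, and TPM counts per length scaled to the same sum. Leave-outs remove 1 of the 6 libraries. Alternatives were 9 other settings, DESeq2 1.42.0 among them. Members named are those past the threshold, the 5 most abundant, those at the edge of the count minimum and those in the pathogen response list. Members and lists were chosen with earlier results of these data known. No sequences are shown, since no sequence table was used here.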

Additional observations from a re-analysis of the deposited data

How the results depend on the processing

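Counts of called F-box members were read under 9 other settings, 6 leave-outs, 2 other count minimums for members and 1 setting added after seeing the data. Over the leave-outs, HW3826 against N2 gave 0 higher throughout and 2 to 5 lower, GR1395 against N2 4 to 17 higher and 4 to 17 lower, and HW3826 against GR1395 2 to 13 higher and 12 to 39 lower. A minimum mean of 2 CPM left 65 members in the test, with 3 lower in HW3826 against N2, 11 higher and 2 lower in GR1395 against N2, and 1 higher in HW3826 against GR1395. No filter gave 14 higher in the last comparison. The added setting left out both N2 replicate 2 and GR1395 replicate 1. There, more members were called in each direction in HW3826 against N2, and so were more of all genes. In GR1395 against N2 fewer members were called in each direction, and so were fewer of all genes. N2 and GR1395 then had 1 library each, and the lone libraries are assumed to vary like the others. With the replicate number as a block, HW3826 against N2 had 0 higher and 3 lower, GR1395 against N2 14 and 11, and HW3826 against GR1395 8 and 28. Deviations of equally numbered libraries correlated across genes at -0.184 (N2 with HW3826), 0.0135 (N2 with GR1395) and 0.00974 (HW3826 with GR1395). Such values cannot decide whether equal numbers share a culture or day, which the labels do not state. Every other setting, a member minimum of 30 or 120 counts (203 and 140 members) among them, kept these 6 counts within 1.5 times. The cause of these changes was not tested, except that the stricter filter tests fewer members. No named gene changed direction while called. The fbxb median in HW3826 against N2 was -0.13, and 0.23 without N2 replicate 2. Members with few counts limit what can be seen: the median SE was 0.50 for fbxb and 0.23 for fbxa in HW3826 against GR1395.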
